A study of Mus musculus with 11 samples.

Results

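The 10 genes described here encode Fc receptors, the adaptor chains that carry their signal and paired immunoreceptors of myeloid cells. They are Fcgr1, Fcgr3, Fcgr4, Fcgr2b, Fcer1g, Tyrobp, Pirb, Pilra, Trem1 and Trem2. The genes were taken by mouse symbol from a table of raw RNA-seq counts with 51912 genes, and all 10 were among the 15703 genes that passed a filter on low counts. RNA came from bone marrow of C57BL/6 mice that carry a tamoxifen-activated Cre recombinase, transduced with a pair of retroviral vectors. A GFP vector expressed its oncogene from the start, and a red fluorescent vector expressed its oncogene only after Cre had been activated with 4-hydroxytamoxifen. CSF3R-only cells (n = 4) had mutant CSF3R, an activated receptor for granulocyte colony-stimulating factor, in the first vector and an empty second vector. CSF3R-first cells (n = 3) had mutant CSF3R in the first vector and CEBPA with a C-terminal mutation in the second. CEBPA-first cells (n = 4) had the same oncogenes in the opposite order. Mutant CSF3R was thus present in every group, but in CEBPA-first cells it was expressed only after Cre had been activated. CEBPA-first cells therefore also differ from both other groups in how long mutant CSF3R was expressed and in the vector that carried it. These differences cannot be told apart from mutation order or from added mutant CEBPA. All samples were sorted as lineage-negative cells positive for both vectors and then kept for 48 h with 4-hydroxytamoxifen in medium without added cytokines. Per the study's methods the mice were female and the marrow donors were healthy young adults. The labels do not say that replicates came from separate animals or cultures, so the p-values measure the spread between these samples, which may be technical. The comparisons ask how the order in which both mutations are acquired changes gene expression.

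Fc receptors bind the constant part of antibodies and couple antibody-coated targets to phagocytes. The activating Fcγ receptors have no signalling motif of their own and depend on the FcRγ chain, the product of Fcer1g, whose ITAM (immunoreceptor tyrosine-based activation motif) is phosphorylated by Src family kinases and then binds the kinase Syk. Inhibitory receptors carry an ITIM (immunoreceptor tyrosine-based inhibition motif) that recruits phosphatases, and paired immunoreceptors are families in which closely related extracellular domains are joined to activating or inhibitory tails. These receptors are known for their expression on neutrophils, monocytes and macrophages, where many of them appear as cells mature.

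Promoter sequences are shown for 4 of the genes because they span the responses described below. Fcgr1 was the gene that was higher in CEBPA-first cells, Fcgr4 and Pirb were among those that were several-fold lower, and Fcer1g is the shared adaptor. Each sequence gives 150 bases that end at the start of the gene in RefSeq on build GRCm38.p6, 5′ to 3′ on the strand of the gene. Capitals mark GAGGAA, the core bound by the ETS factor PU.1, and TTNCNNAA, a motif of C/EBP factors, on either strand. In Pirb a match to each motif shares the stretch TTGAGGAA.
Fcgr1, chr3:96293970-96294119, minus strand: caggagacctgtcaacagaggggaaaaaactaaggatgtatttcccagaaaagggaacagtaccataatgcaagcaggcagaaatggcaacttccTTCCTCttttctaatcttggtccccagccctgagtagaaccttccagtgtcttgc
Fcgr4, chr1:171018776-171018925, plus strand: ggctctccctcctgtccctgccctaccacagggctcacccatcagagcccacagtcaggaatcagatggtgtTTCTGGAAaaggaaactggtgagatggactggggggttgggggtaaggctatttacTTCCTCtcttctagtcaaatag
Pirb, chr7:3720383-3720532, minus strand: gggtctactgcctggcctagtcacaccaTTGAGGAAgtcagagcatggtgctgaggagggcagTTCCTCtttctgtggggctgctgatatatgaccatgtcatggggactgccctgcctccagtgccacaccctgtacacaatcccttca
Fcer1g, chr1:171234350-171234499, minus strand: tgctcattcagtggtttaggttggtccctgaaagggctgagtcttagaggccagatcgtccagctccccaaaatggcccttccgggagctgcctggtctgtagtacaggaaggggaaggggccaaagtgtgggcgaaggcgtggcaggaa

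A RefSeq promoter was matched for 9 of the 10 genes, all but Tyrobp. Within 250 bases before the start, GAGGAA or its complement was found in 7 of the 9 and in 23.3% of 32851 promoters of the same length. TTNCNNAA was found in 5 of the 9 and in 36.8% of all promoters. Fcgr2b and Fcer1g held neither motif in this window. Fcgr1, the gene with the opposite direction of change, held GAGGAA and not TTNCNNAA, as did Trem2. These matches describe letters in a window and are not binding sites.

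Library totals were 49499527 to 65937530 counts for CSF3R-only, 47905747 to 61069929 for CSF3R-first and 49782847 to 72268346 for CEBPA-first. The lowest count of any of the 10 genes in any library was 483 (Trem2 in CEBPA-first replicate B), so none of them was near the detection limit. CSF3R-first replicate A lay nearer to CSF3R-only than replicates B and C for 9 of the 10 genes, and calls of these genes that changed without it are named beside their values. Summed markers of neutrophils (10 genes) covered 26400 to 32400 CPM (counts scaled to a TMM-normalized library size of 1e6) over the CSF3R-only libraries, 14500 to 25200 over the CSF3R-first libraries and 6430 to 8560 over the CEBPA-first libraries. Summed markers of monocytes and macrophages (10 genes) covered 2890 to 3700, 1620 to 2790 and 900 to 1260 CPM in the same order. Against CSF3R-only, 9 of 10 markers of each list were called lower in CEBPA-first cells, and against CSF3R-first 9 of 10 neutrophil and 7 of 10 monocyte and macrophage markers (19.0% and 10.3% of all tested genes were called lower in these comparisons). No marker of either list was at 0 in every library of a group. Eosinophil markers (6 genes) summed to 220 to 349, 44.1 to 117 and 18.7 to 28 CPM, and erythroid markers (6 genes) to 156 to 221, 66.7 to 208 and 20.1 to 30.7 CPM, in the same order of groups. Dendritic cell markers (6 genes) summed to 13.9 to 16.8, 13.1 to 14 and 8.45 to 9.97 CPM, but they did not move together. Of the 4 tested, 1 was called higher in CEBPA-first than in CSF3R-only (Flt3, from 2.34 to 6.6 CPM). Called lower were 2, Itgax (from 9.88 to 1.6 CPM) and Zbtb46. Stem and progenitor markers (7 genes) summed to 910 to 957, 776 to 834 and 757 to 792 CPM. The largest part of this sum was Spi1, with means of 664, 504 and 341 CPM, so the sum mainly follows that gene. Against CSF3R-only cells, CEBPA-first cells had 3 of the 7 called higher (Myb, Hlf and Mecom) and 2 called lower (Cd34 and Gfi1b). Myb was at 108, 186 and 331 CPM and Cd34 at 88.8, 44.1 and 17.9 CPM. In this comparison 8.07% of all tested genes were called higher and 19.0% lower. B cell markers (6 genes) summed to at most 6.81 CPM and T and NK cell markers (6 genes) to at most 0.883 CPM in any library, with 3 of the latter (Cd3e, Cd8a and Ncr1) at 0 throughout. In bulk RNA, fewer cells of a type and less RNA per cell cannot be told apart, and the part of the marker levels in the results below was not tested.

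The comparison of CEBPA-first with CSF3R-only cells asks what both oncogenes together, with mutant CEBPA present first, changed against mutant CSF3R alone. In CEBPA-first cells 8 of the 10 genes were called lower, where a call needs an adjusted p under 0.05 and a log2 fold change of at least 1 in either direction. The 8 were Fcgr3, Fcgr4, Fcer1g, Tyrobp, Pirb, Pilra, Trem1 and Trem2, with decreases from 2.22-fold (Fcgr3) to 7.36-fold (Pirb). The inhibitory receptor gene Fcgr2b was lower by less than the fold threshold, and Fcgr1 was higher by less than that threshold. Among all tested genes 19.0% were called lower and 8.07% higher. All 10 genes passed on adjusted p alone, as did 72.0% of all tested genes, and no overlap was seen between CEBPA-first and CSF3R-only for any of the 10, as for 68.7% of all tested genes. The median log2 fold change was -2.31 over the 10 genes and -0.00 over all tested genes.

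**Figure D1:**
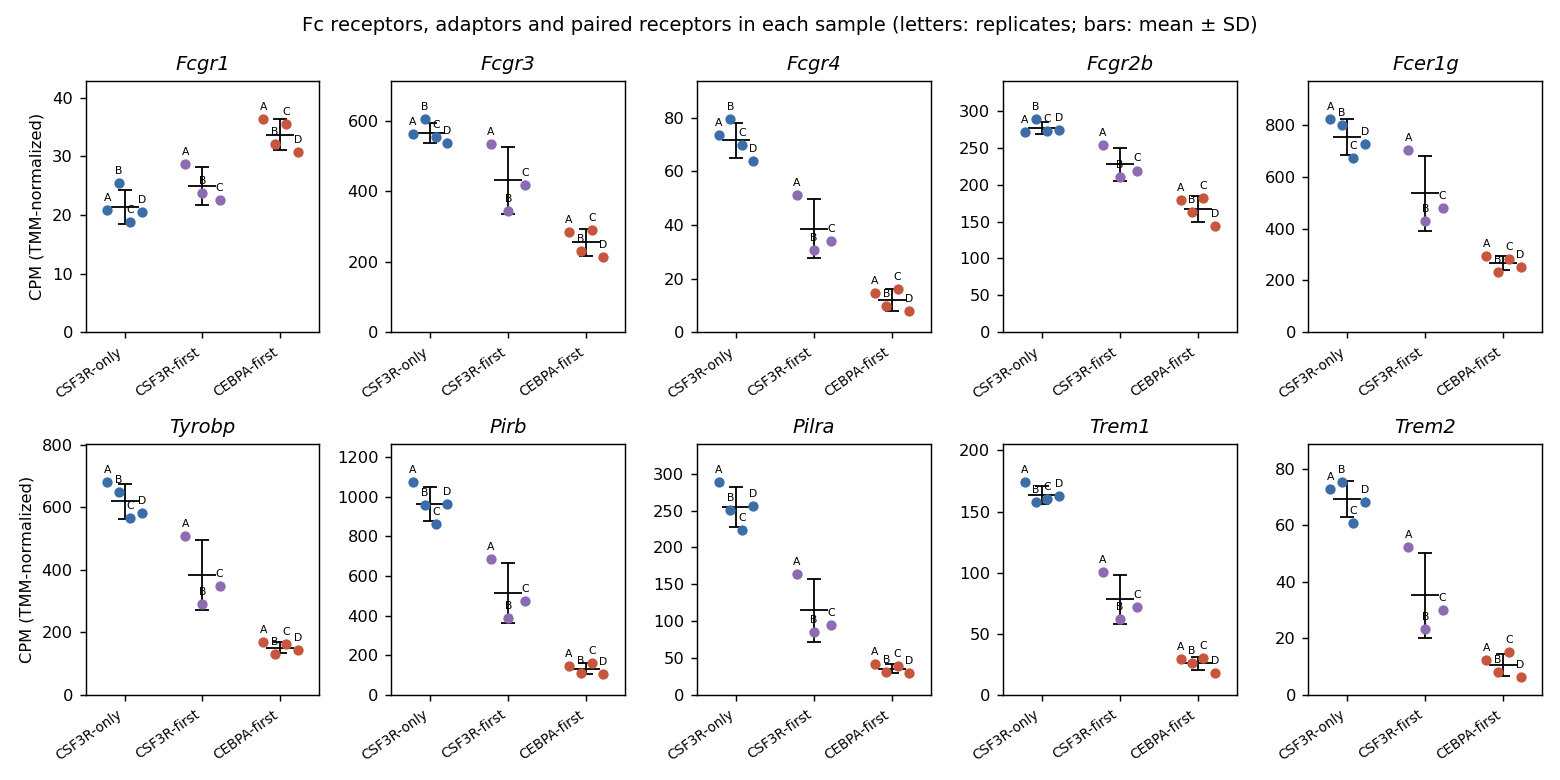
CPM of the 10 genes in each of the 11 samples, with 1 panel per gene, groups on the horizontal axis, letters for replicates and bars for the mean ± SD. In every panel but that of Fcgr1 the 4 CEBPA-first samples lie below all CSF3R-only samples, and CSF3R-first replicate A is the CSF3R-first sample nearest CSF3R-only.

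Fcgr1 (ENSMUSG00000015947, GRCm38 chromosome 3, 96282909 to 96293969, minus strand) encodes FcγRI, the high-affinity receptor for IgG. Fcgr1 was at 20.9, 25.5, 18.8 and 20.5 CPM in CSF3R-only replicates A to D, at 28.7, 23.7 and 22.6 CPM in CSF3R-first replicates A to C, and at 36.3, 32.0, 35.5 and 30.8 CPM in CEBPA-first replicates A to D. The CEBPA-first samples were above all others, while CSF3R-first and CSF3R-only overlapped. Its log2 fold change in CEBPA-first against CSF3R-only was 0.65 (SE 0.104, edgeR adjusted p = 8.14e-05), a 1.57-fold higher level that did not reach the fold threshold.

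The low-affinity activating receptor gene Fcgr3 (ENSMUSG00000059498) and the gene Fcgr4 (ENSMUSG00000059089), which encodes an activating receptor of intermediate affinity, lie beside each other on chromosome 1, from 171051174 to 171064935 on the minus strand and from 171018920 to 171029761 on the plus strand. Fcgr3 was at 562, 604, 554 and 536 CPM in CSF3R-only, at 533, 343 and 417 CPM in CSF3R-first and at 284, 230, 291 and 213 CPM in CEBPA-first. It fell to 45.1% of its CSF3R-only mean, with a log2 fold change of -1.15 (SE 0.131, edgeR adjusted p = 4.29e-06). Fcgr4 was lower by a larger fold. It was at 73.5, 79.4, 69.8 and 63.7 CPM in CSF3R-only, at 51.1, 30.7 and 34.2 CPM in CSF3R-first and at 14.5, 9.68, 16.1 and 7.76 CPM in CEBPA-first. The 3 groups did not overlap, and in CEBPA-first Fcgr4 was at 16.7% of its CSF3R-only mean (log2 fold change -2.58, SE 0.219, edgeR adjusted p = 3.46e-07).

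Fcgr2b (ENSMUSG00000026656, chromosome 1, 170958617 to 170976547, minus strand) encodes the inhibitory Fcγ receptor, whose ITIM recruits the lipid phosphatase SHIP-1. Fcgr2b was at 271, 289, 272 and 275 CPM in CSF3R-only, at 253, 210 and 219 CPM in CSF3R-first and at 180, 163, 182 and 144 CPM in CEBPA-first. The groups stood apart from each other without overlap, but the step was small, at a log2 fold change of -0.73 (SE 0.0817, edgeR adjusted p = 3.86e-06) between CEBPA-first and CSF3R-only.

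Both adaptor genes fell. Fcer1g (ENSMUSG00000058715, chromosome 1, 171229572 to 171234365, minus strand) was at 821, 800, 672 and 725 CPM in CSF3R-only, at 701, 430 and 480 CPM in CSF3R-first and at 293, 234, 282 and 252 CPM in CEBPA-first. All CEBPA-first samples were below every other sample, with a log2 fold change against CSF3R-only of -1.51 (SE 0.138, edgeR adjusted p = 6.51e-07). Tyrobp (ENSMUSG00000030579, chromosome 7, 30413760 to 30417585, plus strand) encodes DAP12, the ITAM adaptor of Trem1, Trem2 and the activating PILR receptors. Tyrobp was at 681, 651, 565 and 582 CPM in CSF3R-only, at 510, 292 and 349 CPM in CSF3R-first and at 168, 132, 162 and 142 CPM in CEBPA-first. It fell to 24.4% of its CSF3R-only mean, against 35.1% for Fcer1g, with a log2 fold change of -2.04 (SE 0.15, edgeR adjusted p = 1.07e-07).

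The ITIM receptor genes Pirb and Pilra were among those with the largest decreases of the 10 genes, with Trem2 and Trem1 within about 1 standard error of Pilra. Without CEBPA-first replicate C, Trem2 (log2 fold change -2.95) was ahead of Pilra (-2.91). Pirb (ENSMUSG00000058818, chromosome 7, 3711409 to 3720391, minus strand) encodes an inhibitory receptor for MHC class I molecules and is paired with the activating Pira genes. Pirb was at 1074, 956, 864 and 964 CPM in CSF3R-only, at 683, 387 and 473 CPM in CSF3R-first and at 146, 112, 162 and 103 CPM in CEBPA-first. The groups did not overlap, and the CEBPA-first mean was 13.6% of the CSF3R-only mean (log2 fold change -2.88, SE 0.183, edgeR adjusted p = 3.11e-08). Of its longest transcript 54.8% has near-identical copies in other genes, Pira2, Lilra6 and Gm14548 among them, so its reads cannot be fully told apart from theirs. Summed with these 3 genes, an alternative chosen after the values were seen, the log2 fold change was -2.86 (edgeR adjusted p = 2.73e-08).

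Pilra (ENSMUSG00000046245, chromosome 5, 137821952 to 137836281, minus strand) encodes the inhibitory partner of the PILR pair, which binds glycosylated ligands. Pilra was at 289, 251, 223 and 256 CPM in CSF3R-only, at 164, 85.3 and 94.4 CPM in CSF3R-first and at 41.6, 31.0, 39.8 and 29.3 CPM in CEBPA-first. Again the groups were fully separate. The CEBPA-first mean was 13.9% of the CSF3R-only mean, at a log2 fold change of -2.85 (SE 0.196, edgeR adjusted p = 6.02e-08). Of its longest transcript 29.8% has near-identical copies elsewhere, and 15.1% of its exon length overlaps Zcwpw1 on the other strand, which counts without strand could not separate.

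Trem1 and Trem2 both signal through DAP12. Trem1 (ENSMUSG00000042265, chromosome 17, 48232768 to 48246924, plus strand) amplifies inflammatory responses of neutrophils and monocytes. Trem1 was at 174, 158, 160 and 162 CPM in CSF3R-only, at 100.4, 61.8 and 72.3 CPM in CSF3R-first and at 29.0, 25.8, 29.97 and 18.2 CPM in CEBPA-first. The CSF3R-only samples were close together, and no groups overlapped. Its log2 fold change in CEBPA-first against CSF3R-only was -2.67 (SE 0.164, edgeR adjusted p = 2.28e-08). Trem2 (ENSMUSG00000023992, chromosome 17, 48346401 to 48354147, plus strand) is a lipid-binding receptor of macrophages, microglia and osteoclasts. Trem2 was at 73.1, 75.4, 61.0 and 68.2 CPM in CSF3R-only, at 52.2, 23.5 and 30.2 CPM in CSF3R-first and at 12.4, 8.24, 15.1 and 6.46 CPM in CEBPA-first. It was lower in each CEBPA-first sample than in any other, by a log2 fold change of -2.73 against CSF3R-only (SE 0.272, edgeR adjusted p = 1.37e-06).

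**Figure D2:**
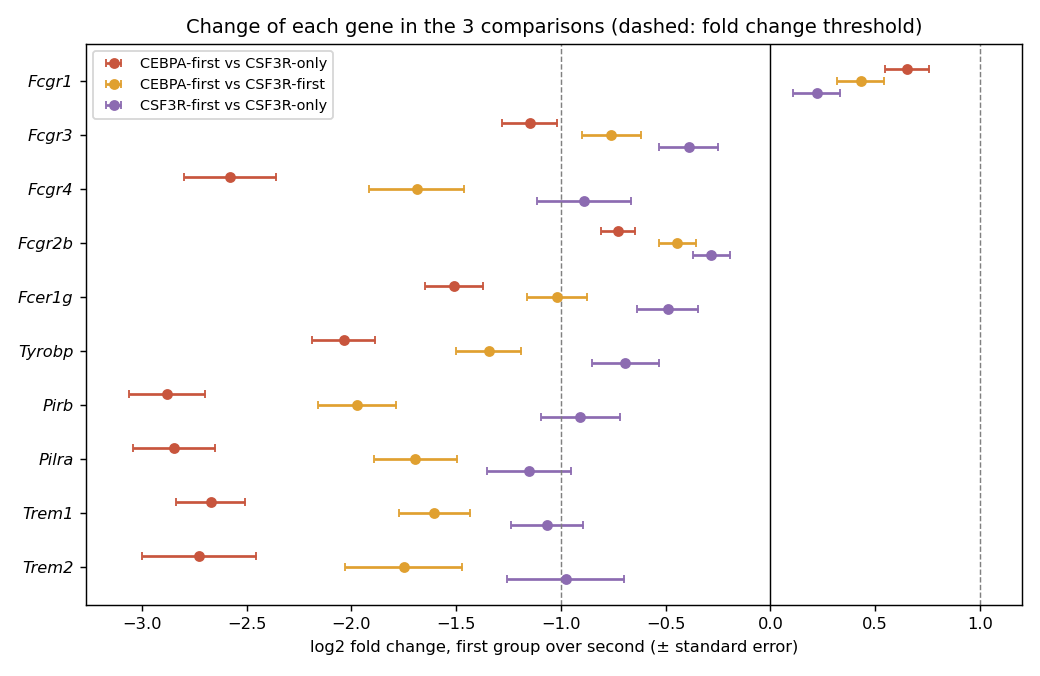
Log2 fold change of each gene in the 3 comparisons, with bars of ± 1 standard error and dashed lines at the fold threshold. Fcgr1 is the only gene right of 0, and the 6 genes from Pirb and Pilra to Trem1, Trem2, Fcgr4 and Tyrobp lie beyond -2 in CEBPA-first against CSF3R-only.

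Per kilobase of exon, the adaptors were the most abundant of the 10 in every group. In CSF3R-only, Tyrobp was at 929 ± 82.9 and Fcer1g at 863 ± 79.0 CPM per kb (SD, n = 4), and Tyrobp was the higher of both in every library. Below them came Fcgr3 at 325 ± 16.5, Pirb at 216 ± 19.3 and Pilra at 82.4 ± 8.69 CPM per kb. Fcgr4 at 57.0 ± 5.25 and Trem1 at 54.6 ± 2.40 CPM per kb did not differ beyond their spread. Fcgr2b followed at 47.8 ± 1.39, Trem2 at 14.0 ± 1.29 and Fcgr1 at 8.27 ± 1.11 CPM per kb. In CEBPA-first the order was another one, with Fcer1g (304 ± 31.0) above Tyrobp (227 ± 25.3) and Fcgr3 (147 ± 22.3), and with Pirb (29.3 ± 6.23) level with Fcgr2b (28.9 ± 3.02). Fcgr1, at 13.0 ± 1.03 CPM per kb, was above Pilra (11.5 ± 2.01), Fcgr4 (9.58 ± 3.15) and Trem1 (8.59 ± 1.77) in each CEBPA-first library, although its range over the libraries overlapped those of Pilra and Fcgr4. Trem2 was lowest at 2.13 ± 0.791. In CSF3R-first, Fcer1g (614 ± 165) and Tyrobp (575 ± 170) led, and Fcgr1 (9.65 ± 1.26) was above Trem2 (7.13 ± 3.04) in each library, with ranges that overlapped between libraries.

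The make-up of the Fcγ receptor transcripts shifted while their main component kept its share. Summed over the 4 Fcγ receptor genes, levels were 438 ± 23.7, 328 ± 68.6 and 198 ± 29.4 CPM per kb in CSF3R-only cells, CSF3R-first cells and CEBPA-first cells. Fcgr3 made up 74.2% ± 0.271, 75.5% ± 1.46 and 74.0% ± 0.493 of this sum. Fcgr4 made up 13.0% ± 0.562, 9.31% ± 0.732 and 4.74% ± 0.899, while Fcgr1 made up 1.88% ± 0.166, 2.98% ± 0.380 and 6.62% ± 0.488. These shares did not overlap between any pair of groups. The inhibitory Fcgr2b made up 10.9% ± 0.372, 12.2% ± 1.36 and 14.7% ± 0.802. The ratio of the summed activating receptors to Fcgr2b was 7.75 to 8.45 over the CSF3R-only libraries, 6.36 to 8.20 over the CSF3R-first libraries and 5.40 to 6.18 over the CEBPA-first libraries, so CEBPA-first samples lay below both other groups. CSF3R-first overlapped CSF3R-only through replicate A alone (8.20), as replicates B (6.36) and C (7.29) were below every CSF3R-only library. The ratio of Tyrobp to Fcer1g fell within narrow ranges that did not overlap, 1.05 to 1.10 for CSF3R-only, 0.890 to 0.953 for CSF3R-first and 0.739 to 0.754 for CEBPA-first. Trem1 to Trem2 stood at 3.92 ± 0.356, 3.83 ± 0.598 and 4.25 ± 0.835, which overlapped between all groups. These shares and ratios are given as descriptions without a test.

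**Figure D3:**
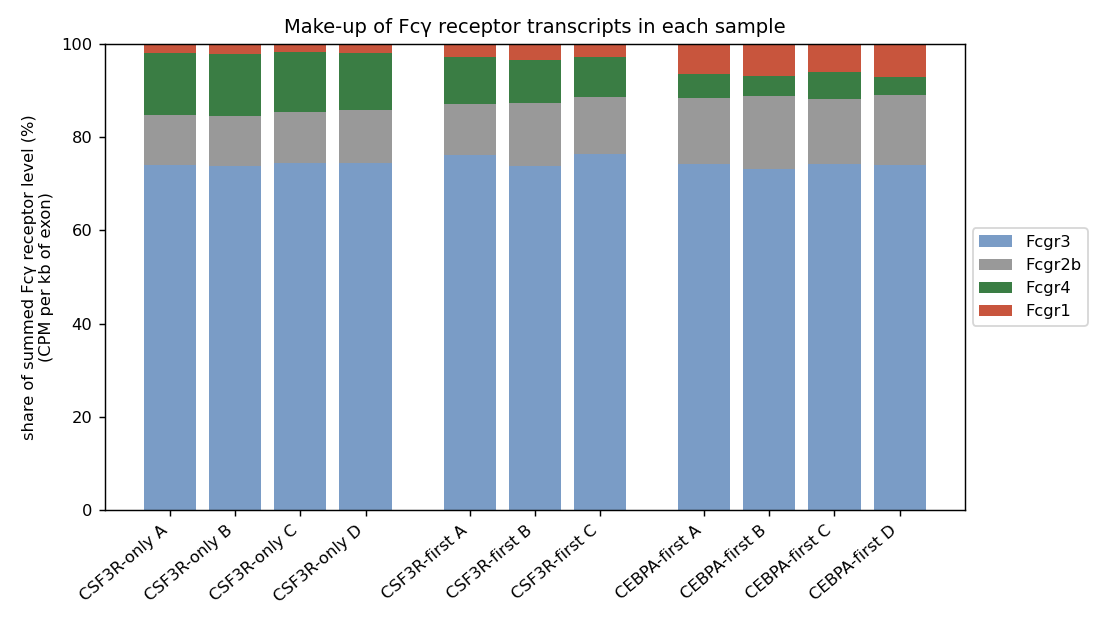
Share of the summed Fcγ receptor level (CPM per kb of exon, in %) held by Fcgr3, Fcgr2b, Fcgr4 and Fcgr1 in each of the 11 samples, stacked to 100%. Fcgr3 holds about the same share in every sample, the Fcgr4 band narrows from 13.0% on average in CSF3R-only to 4.74% in CEBPA-first, and the Fcgr1 band widens from 1.88% to 6.62%.

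The comparison of CEBPA-first with CSF3R-first cells sets the mutation orders against each other, with both oncogenes present in each. In CEBPA-first cells 7 of the 10 genes were called lower, against 10.3% of all tested genes called lower and 2.57% called higher. The 7 were Fcgr4, Fcer1g, Tyrobp, Pirb, Pilra, Trem1 and Trem2. All 10 passed on adjusted p alone (48.3% of all tested genes), and all 10 were without overlap between these groups (52.2% of all tested genes). The median log2 fold change was -1.47 over the 10 genes and 0.00 over all genes. Pirb had the largest decrease, to 25.5% of the CSF3R-first mean, with a log2 fold change of -1.97 (SE 0.186, edgeR adjusted p = 5.45e-06). Trem2 (log2 fold change -1.75, adjusted p = 0.000346), Pilra (-1.70, 3.11e-05), Fcgr4 (-1.69, 9.03e-05) and Trem1 (-1.60, 1.29e-05) were lower by about the same amount. The adaptors followed with Tyrobp at -1.34 (SE 0.155, edgeR adjusted p = 2.85e-05) and Fcer1g at -1.02 (SE 0.145, edgeR adjusted p = 0.000149). The call of Fcer1g was at the edge of the fold threshold. It was lost without CSF3R-first replicate A (-0.77), CEBPA-first replicate B (-0.96) or CEBPA-first replicate D (-0.99). The same call was lost with a replicate block (-0.97) and without a filter on low counts (-0.99). Fcgr3, at -0.76 (SE 0.139, edgeR adjusted p = 0.00087), and Fcgr2b, at -0.44 (SE 0.0874, edgeR adjusted p = 0.00141), were lower by less than the fold threshold. Fcgr1 was higher in CEBPA-first by 0.43 (SE 0.112, edgeR adjusted p = 0.00734), also below that threshold.

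The comparison of CSF3R-first with CSF3R-only cells asks what mutant CEBPA, switched on by 4-hydroxytamoxifen, changed in cells that already had mutant CSF3R. The CSF3R-only cells, with an empty second vector, had the same 48 h with 4-hydroxytamoxifen. This comparison shares the CSF3R-only samples with the first comparison and the CSF3R-first samples with the second. Pilra and Trem1 were called lower, at log2 fold changes of -1.15 (SE 0.202, edgeR adjusted p = 0.000902) and -1.07 (SE 0.171, edgeR adjusted p = 0.000508). They are 2 of the 10 genes, beside 4.53% of all tested genes called lower and 2.13% called higher. On adjusted p alone 9 of the 10 passed (42.7% of all tested genes), and 8 of the 10 did not overlap (42.1% of all tested genes). Trem2 (-0.98), Pirb (-0.91) and Fcgr4 (-0.89) were just short of the fold threshold, with edgeR adjusted p of 0.0134, 0.00241 and 0.00723. With a replicate block Trem2 (-1.16) and Fcgr4 (-1.04) were called too. Tyrobp was lower by 0.69 on the log2 scale (SE 0.158, edgeR adjusted p = 0.00416), with no overlap between the groups. Fcer1g (log2 fold change -0.49, edgeR adjusted p = 0.0173) overlapped, since CSF3R-first replicate A at 701 CPM was above CSF3R-only replicate C at 672 CPM. Fcgr3 and Fcgr2b differed by -0.39 and -0.28 (edgeR adjusted p = 0.0396 and 0.0213), and these adjusted p reached 0.186 and 0.101 when single samples were left out. Without CSF3R-first replicate B or C, 5 of the 10 genes passed on adjusted p alone, and Fcgr3, Fcgr2b, Fcer1g and Trem2 did not pass. Fcgr1 was 1.17-fold higher and did not pass (log2 fold change 0.22, SE 0.112, edgeR adjusted p = 0.13), except without CSF3R-only replicate B (0.31, edgeR adjusted p = 0.0281). The median log2 fold change was -0.79 over the 10 genes and -0.02 over all tested genes. The number called depended on single libraries. It was 5 without CSF3R-first replicate A, when Pirb (-1.16), Fcgr4 (-1.14) and Trem2 (-1.37) joined, 1 without replicate C and 0 without replicate B, when Pilra was at -0.98 and Trem1 at -0.92.

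On the log2 CPM scale, with 0 at the CSF3R-only mean and 1 at the CEBPA-first mean, CSF3R-first lay between 0.325 (Pirb) and 0.423 (Pilra) on average for the 10 genes. Its replicates were further apart than its genes. Replicate A had a median position of 0.172 over the 10 genes, replicate C of 0.416 and replicate B of 0.533. For Fcer1g, replicates A, B and C were at 0.0668, 0.535 and 0.430, and for Tyrobp at 0.136, 0.531 and 0.404. Trem1 varied least, from 0.262 to 0.521 (mean 0.407 ± 0.133, SD, n = 3). Fcgr1 was the exception to the order of the replicates, with replicate A at 0.654, nearest CEBPA-first, and replicates B and C at 0.236 and 0.130. Every CSF3R-first replicate lay between both means for each of the 10 genes.

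**Figure D4:**
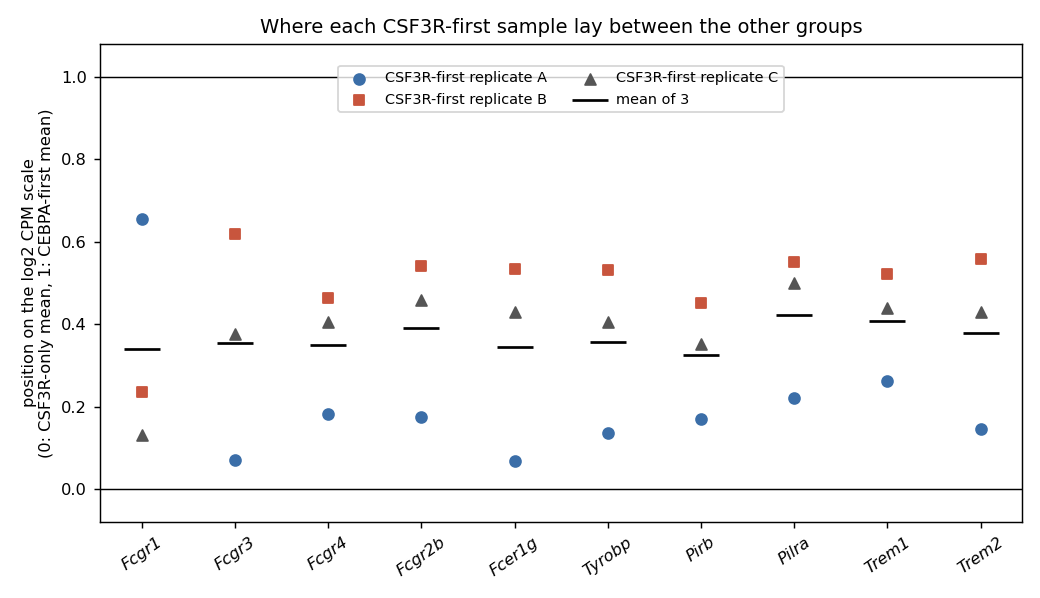
Position of CSF3R-first replicates A, B and C between the CSF3R-only mean (0) and the CEBPA-first mean (1) on the log2 CPM scale for each gene, with black bars for the mean of 3. Replicate A is the lowest of the 3 for every gene but Fcgr1, and all means lie between 0.325 and 0.423.

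Among 13 other Fc receptor genes 7 were tested, and their changes were mixed. In CEBPA-first against CSF3R-only 1 was called higher and 2 lower, beside 8.07% and 19.0% of all tested genes, with a median log2 fold change of -0.33. The gene called higher was Fcer1a, the IgE-binding chain of the mast cell and basophil receptor that also contains the FcRγ chain. Fcer1a was at 117 ± 25.4 CPM (SD) over the CSF3R-only, 63.3 ± 14.9 over the CSF3R-first and 260 ± 67.0 over the CEBPA-first samples. It was thus higher in CEBPA-first than in CSF3R-only cells (log2 fold change 1.15, SE 0.20, edgeR adjusted p = 0.00017) and than in CSF3R-first (2.04, SE 0.23, edgeR adjusted p = 2.1e-05), while Fcer1g of the same receptor was lower in both. The first of these calls was lost without CEBPA-first replicate D (log2 fold change 0.96, edgeR adjusted p = 0.00037). Ms4a2, the third chain of that receptor, was at 89.6 ± 16.1, 74.6 ± 26.1 and 122 ± 21.6 CPM and did not pass in CEBPA-first against CSF3R-only (log2 fold change 0.45, edgeR adjusted p = 0.065). Compared with CSF3R-first it was higher in CEBPA-first by less than the fold threshold (0.71, SE 0.22, edgeR adjusted p = 0.019). Mast cell and basophil markers (7 genes, Ms4a2 among them) summed to 1420 to 2200 CPM for CSF3R-only, 925 to 1100 for CSF3R-first and 880 to 1100 for CEBPA-first. Both genes called lower, Fcrla and Fcrlb, were at most at 1.54 CPM in any library. In CEBPA-first against CSF3R-first 1 was higher and 2 were lower (2.57% and 10.3% of all tested genes), with Fcer1a alone still called without CEBPA-first replicate B or D or CSF3R-first replicate A. In CSF3R-first against CSF3R-only edgeR and DESeq2 each called 0 of the 7, with 2 at an unadjusted edgeR p under 0.05.

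Most other paired immunoreceptors were also lower in CEBPA-first cells. Of 45 listed genes 38 were matched to an identifier and 34 tested, and 6 Pira genes were among the 7 without a match. In CEBPA-first against CSF3R-only 27 were called, all of them lower, beside 19.0% of all tested genes, with a median log2 fold change of -1.88. The count was 18, all lower, in CEBPA-first against CSF3R-first (median -1.21), where 10.3% of all tested genes were lower. It was 9 lower with 1 higher in CSF3R-first against CSF3R-only (median -0.80), where 4.53% of all tested genes were lower and 2.13% higher, and these 10 calls became 18 without CSF3R-first replicate A and 7 without replicate B. The largest decreases by the naming rule were those of Treml1, a platelet and megakaryocyte receptor (13.7 ± 1.78, 3.87 ± 0.884 and 0.303 ± 0.131 CPM in CSF3R-only, then CSF3R-first and lastly CEBPA-first cells), and Treml4 (26.7 ± 5.84, 11.1 ± 5.60 and 0.853 ± 0.219 CPM). Their log2 fold changes in CEBPA-first against CSF3R-only were -5.49 (SE 0.24, edgeR adjusted p = 1.5e-09) and -4.98 (SE 0.32, edgeR adjusted p = 2.9e-08). Megakaryocyte markers (6 genes) summed to 1070 to 1410 CPM in CSF3R-only and 123 to 169 CPM in CEBPA-first, and their part in the Treml1 value was not tested. Cd300ld, an activating member of the CD300 family, was at 288 ± 17.3, 126 ± 42.5 and 27.9 ± 8.80 CPM, and the inhibitory Cd300lf at 374 ± 43.2, 257 ± 58.6 and 90.0 ± 17.0 CPM. Lilra5 had no count in any CEBPA-first library and was at least 11.3-fold lower there than in CSF3R-only cells (0.648 ± 0.161 CPM), against a floor of 3 counts per library. With Lilra5 at its bound, the median in CEBPA-first against CSF3R-first was -1.12.

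The activating partners of the inhibitory receptors Pirb and Pilra fell as well. Pilrb1 was at 57.5 ± 5.69, 31.7 ± 9.35 and 9.94 ± 1.94 CPM and Pilrb2 at 66.9 ± 7.38, 31.2 ± 12.4 and 7.96 ± 1.30 CPM in the 3 groups. Their log2 fold changes in CEBPA-first against CSF3R-only, -2.53 and -3.07 (SE 0.17 and 0.20, edgeR adjusted p = 6.1e-08 and 4.5e-08), lay on either side of that of Pilra. Over 41.8% of each transcript these genes have near-identical copies, in part in each other and in Pilra. Pira2 was at 22.7 ± 2.42, 11.9 ± 2.29 and 4.55 ± 1.0 CPM and Lilra6 at 56.3 ± 6.65, 28.8 ± 8.41 and 7.63 ± 1.03 CPM, and they had log2 fold changes of -2.32 and -2.89 (edgeR adjusted p = 6e-08 and 1.1e-08). All of the Pira2 transcript (100%) and 26.7% of that of Lilra6 match other genes, Pirb among them. Clec5a, another DAP12-coupled receptor, was not called in any comparison, at 488 ± 25.6, 588 ± 66.4 and 414 ± 36.4 CPM. Clec5a was lower in CEBPA-first cells than in CSF3R-first cells (log2 fold change -0.51, edgeR adjusted p = 0.00075) and than in CSF3R-only cells (-0.24, edgeR adjusted p = 0.022), and higher in CSF3R-first than in CSF3R-only cells (0.27, edgeR adjusted p = 0.03).

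Of 43 listed genes that act downstream of ITAM and ITIM receptors, all were tested, and 13 were called lower and 2 higher in CEBPA-first against CSF3R-only, beside 19.0% and 8.07% of all tested genes, with a median log2 fold change of -0.66. Between CEBPA-first and CSF3R-first cells 3 of the 43 were called, all lower in CEBPA-first, beside 10.3% of all tested genes. In CSF3R-first against CSF3R-only 2 were lower and 1 higher, beside 4.53% and 2.13%, so the counts in the latter 2 comparisons were near or below the background. Src family kinases that phosphorylate ITAMs were among those that fell. Fgr was at 444 ± 39.8, 244 ± 66.8 and 67.4 ± 14.7 CPM in CSF3R-only cells, CSF3R-first cells and CEBPA-first cells, with a log2 fold change of -2.72 (SE 0.18, edgeR adjusted p = 3.7e-08) in CEBPA-first against CSF3R-only. Lyn, which also phosphorylates ITIMs, fell by 1.16 on the log2 scale (SE 0.10, edgeR adjusted p = 4.3e-07), from 472 ± 24.0 to 211 ± 21.5 CPM. Syk, the kinase that docks on the phosphorylated ITAM, fell by 1.03 (SE 0.086, edgeR adjusted p = 3.2e-07), from 476 ± 36.2 to 233 ± 20.4 CPM, and was short of the fold threshold without CSF3R-only replicate A (-0.99), CEBPA-first replicate D (-0.97) or a filter on low counts (-0.96). The scaffold genes Lat2 and Lat fell by 2.17 and 2.05 on the log2 scale (edgeR adjusted p = 1.1e-10 and 2.5e-06). Lyn has near-identical copies elsewhere over 37.6% of its transcript, and Lat2 over 55.6%.

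Of the phosphatase genes that act on the inhibitory side, Inpp5d and Ptpn6 were lower in CEBPA-first cells by less than the fold threshold. Inpp5d, which encodes SHIP-1, was at 360 ± 22.8, 297 ± 16.6 and 276 ± 19.3 CPM, with a log2 fold change of -0.38 (SE 0.07, edgeR adjusted p = 0.00025) in CEBPA-first against CSF3R-only. Ptpn6, which encodes SHP-1, was at 827 ± 70.5, 636 ± 100 and 426 ± 33.8 CPM (log2 fold change -0.96, SE 0.099, edgeR adjusted p = 1.9e-06). Inppl1, which encodes SHIP-2, was called lower at the edge of the threshold (7.57 ± 0.340, 4.05 ± 1.03 and 3.77 ± 0.532 CPM, log2 fold change -1.01, SE 0.15, edgeR adjusted p = 3.9e-05), a call that was lost without CSF3R-only replicate A (-0.98), CEBPA-first replicate D (-0.92) or CSF3R-first replicate C (-0.996), with DESeq2 (-0.99) and without a filter on low counts (-0.94). Ptpn11, which encodes SHP-2, was at 80.0 ± 4.30, 70.5 ± 9.34 and 77.8 ± 1.52 CPM and did not pass (log2 fold change -0.04, SE 0.074, edgeR adjusted p = 0.64). Inppl1 and Ptpn11 were singled out after their values were seen. The genes called higher were Lck, a Src family kinase best known in T cells (1.75 ± 0.395, 2.23 ± 0.392 and 4.32 ± 0.644 CPM), and Sh2d1b1, an SH2 adaptor (11.8 ± 1.87, 26.2 ± 6.22 and 24.3 ± 3.81 CPM). Their log2 fold changes in CEBPA-first against CSF3R-only were 1.30 and 1.04 (SE 0.19 and 0.16, edgeR adjusted p = 3.3e-05 and 4.8e-05). The call of Sh2d1b1 was lost without CSF3R-only replicate C (0.95) or D (0.99) or CEBPA-first replicate A (0.94), and under a minimum of 10 counts per sample (0.998). Sh2d1b1 was also called higher in CSF3R-first against CSF3R-only (1.15, SE 0.17, edgeR adjusted p = 0.00027), though not without CSF3R-first replicate A (0.94).

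**Figure D5:**
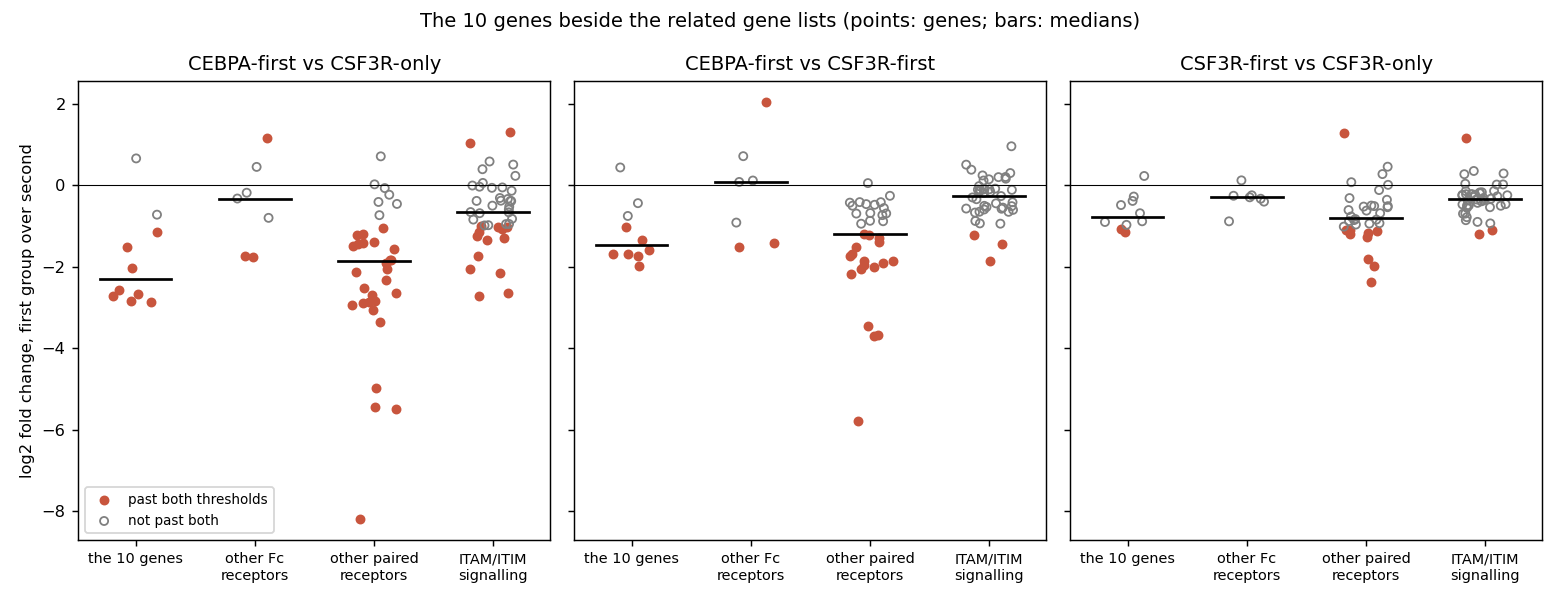
Log2 fold change of the 10 genes and of every tested gene of the 3 related lists in each comparison, with filled points for genes past both thresholds and bars for list medians. The medians in CEBPA-first against CSF3R-only are -2.31, -0.33, -1.88 and -0.66 from left to right, and the lowest point of the paired receptors there is the fitted value of Lilra5, which had no count in CEBPA-first.

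Neighbouring genes did not all move with the 10. The span from Fcgr2b to Fcer1g on chromosome 1 (275.7 kb) holds 4 of the 10 genes and 6 other tested genes. Among these 6, log2 fold changes in CEBPA-first against CSF3R-only ran from -0.96 (Gm10522) to 0.40 (Tomm40l), all short of the fold threshold. The succinate dehydrogenase subunit gene Sdhc, between Fcgr3 and Fcer1g, was at 0.18 (SE 0.0459, edgeR adjusted p = 0.00272). The span from Trem1 to Trem2 on chromosome 17 (121.4 kb) holds 4 other tested genes. Of these, Treml4 and B430306N03Rik (log2 fold change -2.92, SE 0.162, edgeR adjusted p = 9.27e-09) were called lower. Trem3, beside Trem1, was at 75.9 ± 7.21, 76.1 ± 10.1 and 55.0 ± 2.51 CPM (log2 fold change -0.46, SE 0.087, edgeR adjusted p = 0.00032 in CEBPA-first against CSF3R-only). Treml2 was at 70.7 ± 3.50, 64.9 ± 2.43 and 67.1 ± 2.21 CPM and did not pass (-0.08, SE 0.054, edgeR adjusted p = 0.23). Both spans were chosen after the values were seen.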

How the data were processed

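RNA-seq libraries of 11 samples were sequenced by the authors, trimmed with Trimmomatic and, per the labels, aligned with STAR to mm10. The deposited values are raw read counts per Ensembl gene without normalization. The counting tool, annotation and strand setting are not given in the sources used here. Of 51912 genes 23409 had no count, and 279 identifiers without a symbol held at most 0.0279% of a library. Replicates differed by more than sampling noise and each was kept.

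Counts were TMM-normalized, filtered with filterByExpr and tested with edgeR 4.0.16 (quasi-likelihood test, R 4.3.3) in one fit of the 3 groups, with Benjamini-Hochberg adjustment over 15703 genes. A call needed an adjusted p under 0.05 and a log2 fold change of at least 1, the study's threshold for its DESeq2 analysis. Standard errors were derived from edgeR's F statistic as log2 fold change over its square root. Log2 CPM used a prior count of 2. Exon lengths, positions and transcript matches (BLAST 2.17.0, at least 100 bp at 97% identity) come from a GRCm38 annotation, and promoters from RefSeq. Figures used matplotlib 3.10.9.

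The test was checked on simulated counts of 15703 genes for CEBPA-first against CSF3R-only. All 200 changed genes (log2 fold changes of 2 or 3 in either direction) were recovered and 1 unchanged gene was called. This check says nothing about calls near the fold threshold, because its changes were larger. It also changed few genes in independent samples, whereas 72.0% of tested genes passed on adjusted p alone in the data. The members, gene lists and tests were chosen with earlier results of these data known. List genes were named by a rule: up to 4 per direction with the largest change among those called in CEBPA-first against CSF3R-only at an average log2 CPM of at least 1, with a few signalling and partner genes always named, of which 1 is not reported here. Alternatives were DESeq2 1.42.0, other normalizations and filters, pairwise fits, a replicate block, other thresholds, and each sample left out.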

Additional observations from a re-analysis of the deposited data

How the results depend on the processing

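No alternative reversed the direction of any of the 10 genes in any comparison, and 529 of their values under alternatives stayed on the same side of the threshold, with 6 newly past it and 8 no longer past it. The exceptions were near the fold threshold: Fcer1g in CEBPA-first against CSF3R-first, also at -0.99 without a filter on low counts, and in CSF3R-first against CSF3R-only Trem1 (-0.997 without CSF3R-first replicate C), Trem2 (-1.04 without CSF3R-only replicate C) and Pilra, Pirb and Fcgr4 with the samples named beside their results. When single samples were left out, 8 of the 10 genes were called in CEBPA-first against CSF3R-only and 6 to 7 in CEBPA-first against CSF3R-first. In CSF3R-first against CSF3R-only 0 to 5 were called, and 5 to 9 passed on adjusted p alone. Shares of all tested genes with samples left out are not given here. With adjusted p alone the counts in CEBPA-first against CSF3R-only were 5 other Fc receptors and 37 signalling genes, in CEBPA-first against CSF3R-first 5 other Fc receptors, 28 paired receptors and 25 signalling genes, and in CSF3R-first against CSF3R-only 2, 28 and 32, beside 72.0%, 48.3% and 42.7% of all tested genes. With at least 10 counts in every sample 1 other Fc receptor was called in each of the CEBPA-first comparisons. Leaving out samples gave 2 to 3 other Fc receptors and 12 to 18 signalling genes in CEBPA-first against CSF3R-only, 1 to 4 other Fc receptors in CEBPA-first against CSF3R-first (1 without CEBPA-first replicate B or D or CSF3R-first replicate A) and 0 to 1 in CSF3R-first against CSF3R-only (1 without CSF3R-only replicate A or CSF3R-first replicate B), 3 to 5 signalling genes in CEBPA-first against CSF3R-first (5 without CEBPA-first replicate A or CSF3R-first replicate C), and 7 to 18 paired receptors in CSF3R-first against CSF3R-only (18 without CSF3R-first replicate A). With a replicate block 4 of the 10 genes were called in CSF3R-first against CSF3R-only, with Fcgr4 at -1.04 and Trem2 at -1.16, the call of Fcer1g in CEBPA-first against CSF3R-first was lost (-0.97), and calls over all genes went from 4244, 2016 and 1045 to 4279, 2033 and 1218. The letters were not taken as pairs because no label says what a letter marks. Of the same-letter correlations 7 of 10 were over 0.1 (-0.107 to 0.362), beside 5 of 30 between different letters. Of 11 samples 6 correlated best with their own letter, a hint from the data and not the design. The causes of these shifts were not tested. At this depth counting error is small for the 10 genes, and among the other named genes low counts in CEBPA-first limit at least the values of Fcrla, Fcrlb, Lilra5 and Treml1.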
